A study of Arabidopsis thaliana with 8 samples.

Results

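The accessible regions of the arms of chromosome 3 of Arabidopsis thaliana were the 4156 merged ATAC-seq regions, of 24103 on the 5 nuclear chromosomes, whose middle lay below 10.3 Mb or above 17.3 Mb of chromosome 3 on the TAIR10 build. Overlapping peaks of 8 peak lists had been merged, and no fold, line or generation entered the choice. At the borders, the region just inside the low-coordinate arm (chr3:10291059-10291383) and the region just outside it (chr3:10303873-10304269) had a peak in all 8 libraries, the region just inside the high-coordinate arm (chr3:17306313-17306929) in 8 and the region just outside it (chr3:17298160-17298350) in 1. The low-coordinate arm held 2554 regions and the high-coordinate arm 1602, with 524 regions between them and 19423 on the other 4 chromosomes. The libraries came from shoots of seedlings of RIL149 and RIL50, 2 recombinant inbred lines from a cross of the accessions Ler and Cvi. The study chose them because their rates of spontaneous CG epimutation differ, and its labels do not say which line has the higher rate. Each line was sampled at generation 3 and generation 10 in lineages 1 and 2, which gave 4 groups of 2 libraries: RIL149 at generation 3, RIL149 at generation 10, RIL50 at generation 3 and RIL50 at generation 10. All plants were grown alike and carry homozygous mixtures of the parental genomes, and each line is a single genotype, so a difference between the lines is a difference between 2 genotypes. The labels do not say whether a library came from a single plant or a pool, and p-values therefore measure the spread between these libraries.

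In ATAC-seq, a transposase inserts sequencing adapters where DNA is not covered by nucleosomes, so that reads pile up over open promoters, terminators and enhancers. Arabidopsis chromosome arms are rich in genes, and the chromatin around the centromere is rich in repeats, methylated and compact. Most open sites of a plant genome lie close to gene ends, where transcription factors and the transcription machinery bind. A peak says that a site was open in part of the nuclei, and in whole shoots a site open in fewer cells cannot be told apart from a site less open in each cell.

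The lists held 13186 to 21540 nuclear peaks, and read depth is unknown because the files give no read counts. The RIL149 generation 3 lineage 2 list stood apart as the shortest: it had 53.1% of the arm regions against 68.8% to 86.1% in the others, and 348 arm regions were missing in it alone. The shoot label was checked against genes of photosynthesis on these arms, of which 12 of 14 were open at an end in each of the 8 libraries, among them LHCA4, LHCB4.2 and PSBO2 of the light-harvesting and oxygen-evolving complexes. Among 5 genes listed for root identity, not all of which act in roots alone, CASP2, RHD3 and SCR had a peak in all 8 libraries. WOX5 had a peak in 5 and PLT1 in none. A peak at a gene end does not measure expression, and the share of root cells was not tested. Among offsets tried in steps of 250 bp, the lists' positions matched the reference gene table best without an offset on either arm. Smaller offsets were not tested.

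Open sites of the arms were mostly shared. A peak was present in all 8 libraries in 1985 of the 4156 arm regions (47.8%), in 46.9% on the low-coordinate arm and 49.2% on the high-coordinate arm, and in 2333 regions when the shortest list was left out. The share was 45.2% on the other 4 chromosomes, taken whole with the stretches around their centromeres, and 29.8% between the arms of chromosome 3. In 447 arm regions (10.8%) a peak was present in 1 library. The median width was 526 bp for regions in all 8 libraries and 149 bp for regions seen in 1, but a merged region spans all of its peaks and so widens with their number. A gene end lay within 1000 bp outside or 200 bp inside for 85.3% of the arm regions, 4.33% lay inside genes and 10.3% outside both. These shares are descriptions, since regions of the same libraries are not independent samples.

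**Figure D1:**
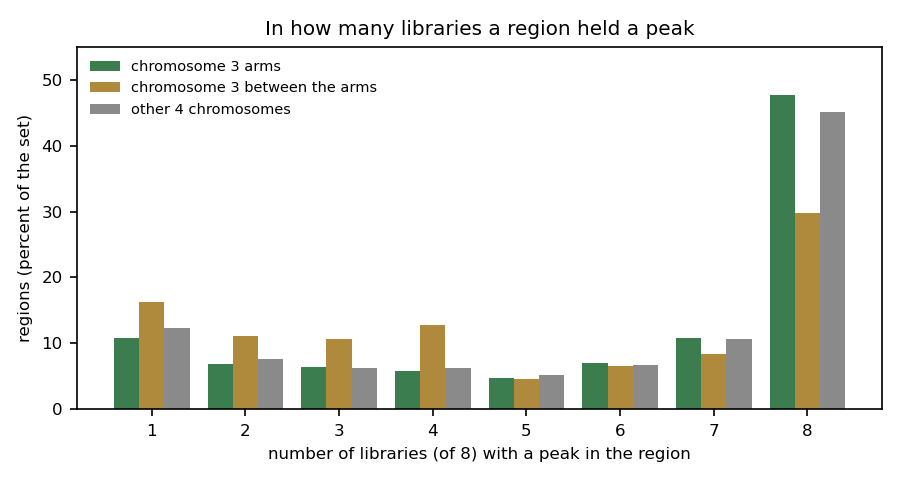
Share of regions (percent of each set, vertical axis) by the number of libraries with a peak (horizontal axis) for the arms of chromosome 3, the stretch between them and the other 4 chromosomes. A peak in all 8 libraries was the most frequent class in each set, at 47.8% on the arms and 29.8% between them.

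The strongest shared sites of the low-coordinate arm all lay at gene ends, judged by the lowest of their 8 fold values. Fold is the authors' ratio of reads at the summit to the local background, and since the depth of the lists is unknown, folds from different lists are given side by side as descriptions of each list. The region at AT3G20362 and AT3G20370 (chr3:7103780-7104574) had folds of 36.8 and 38.9 in the RIL149 generation 3 libraries, 38.2 and 35.0 in RIL149 generation 10, 39.5 and 36.8 in RIL50 generation 3, and 36.9 and 40.0 in RIL50 generation 10. The values of the lines overlapped. The next were AT3G09690 (20.4 to 27), AT3G10330, which encodes the general transcription factor TFIIB2 (18.7 to 25.4), HAOX2, a hydroxyacid oxidase gene (17.2 to 26.0), and AT3G09680 (16.9 to 20.5).

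On the high-coordinate arm the strongest shared region lay at AT3G58600 and AT3G58610 (chr3:21671041-21671607), with folds of 24.7 to 28.7 and a median of 27.4 over the 8 libraries. The region at AT3G57760 ranged from 19.6 to 28.1. The region at FER, the gene of the receptor kinase FERONIA that acts in cell growth and fertilization, ranged from 17.6 to 21.2. The region at PROT2, a proline transporter gene, ranged from 16.4 in RIL149 generation 3 lineage 2 to 30.9 in RIL149 generation 10 lineage 2. The region shared by ATERDJ3B, which encodes a chaperone of the endoplasmic reticulum, and MYB11, a regulator of flavonol synthesis, ranged from 16.0 to 24.2. In each of these regions the values of RIL149 and RIL50 overlapped.

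The number of arm regions with a peak did not differ between lines or generations beyond the spread of the libraries. RIL149 had 2928 and 2205 regions at generation 3 and 3302 and 3580 at generation 10. RIL50 had 3218 and 3188 at generation 3 and 3220 and 2858 at generation 10. The RIL149 values spanned all of the RIL50 values, and the means were 3004 ± 595.8 for RIL149 against 3121 ± 175.9 for RIL50 (SD over 4 libraries), a difference of -117.2 (RIL149 minus RIL50; exact two-sided permutation test over 70 arrangements, p = 0.83). Without RIL149 generation 3 lineage 2 the difference turned to 149.0 more in RIL149 (exact permutation p = 0.400). Generation 10 had 3240 ± 297.6 and generation 3 had 2885 ± 471.5, a difference of 355.2 (SD, n = 4 each; exact permutation p = 0.229). Over 30 tests of 5 measures (regions present, covered length, median peak width, median fold and share of nuclear peaks) on each arm and on both, every Benjamini-Hochberg adjusted exact p was 0.916 or higher, and the smallest raw p that 4 against 4 libraries can give is 0.0286. Arm peaks made up 17.45% to 18.03% of the nuclear peaks of a list.

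**Figure D2:**
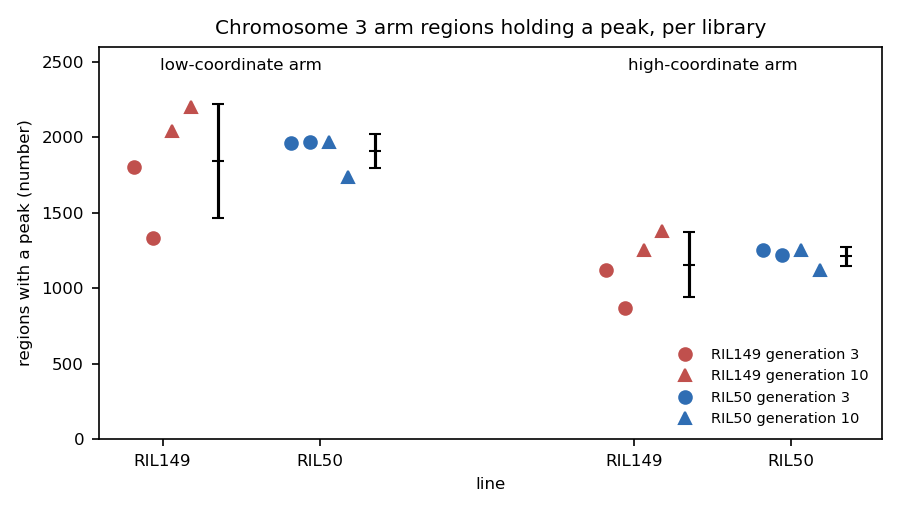
Number of chromosome 3 arm regions with a peak (vertical axis) in each library, by arm and line, with generation 3 as circles, generation 10 as triangles, and the mean and SD of the 4 libraries of a line in black. RIL149 libraries spread from 2205 to 3580 over both arms and RIL50 libraries from 2858 to 3220.

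Peaks on the arms had a slightly higher median fold than peaks on the other 4 chromosomes, taken whole, in every list. Those 4 chromosomes include the stretches around their centromeres, while the arms of chromosome 3 leave theirs out. Arms were not compared with arms, so this contrast does not set these arms apart from those of other chromosomes. The median fold of arm peaks was 4.535, 4.356, 4.837 and 4.919 in RIL149 (generation 3, then generation 10) and 5.355, 4.119, 4.187 and 5.161 in RIL50. Within a list, the log2 median fold of the arms exceeded that of the other 4 chromosomes by 0.0454 ± 0.0106 (SD over 8 libraries, higher in 8 of 8; exact two-sided sign-flip permutation p = 0.00781, the smallest possible here, and 0.0117 after Benjamini-Hochberg adjustment over 3 contrasts). The low-coordinate arm lay below the high-coordinate arm by a log2 difference of -0.0426 ± 0.0241, in 8 of 8 libraries, with the same exact permutation p and adjusted p. Against the peaks between the arms the log2 difference was 0.0730 ± 0.0712, higher in 7 of 8 libraries (exact permutation p = 0.0234, adjusted p = 0.0234). Without the shortest list the first and second of these were 0.0447 and -0.0446 (exact permutation p = 0.0156 for each). The libraries share the same regions, so these tests speak for the spread between libraries and not between regions.

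Along the arms, both the density of regions and the share found in all 8 libraries were lower in the innermost window than in the outermost window of each arm. In windows of 1 Mb, cut shorter at the inner borders and at the high end, density was 267 regions per Mb in chr3:1-1000000 and 200 per Mb in chr3:10000001-10300000, and 201 per Mb in chr3:17300001-18000000 and 294 per Mb in chr3:23000001-23459708. It did not change steadily in between: chr3:4000001-5000000 had 287 per Mb, and chr3:18000001-19000000, the second window from the inner border, had 289 per Mb. The share of regions in all 8 libraries was 48.7% to 53.6% in the windows of the first 4 Mb and 40.1% to 43.3% from 6 Mb to the inner border. On the other arm it was 40.1% in chr3:18000001-19000000 and 67.4% in chr3:23000001-23459708. On the high-coordinate arm the median over libraries of the median fold was also lowest in chr3:18000001-19000000, at 4.30, and highest in the last window, at 5.46. On the low-coordinate arm it was highest in the innermost window, at 5.20, so fold did not follow the shared percentage there.

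A limma fit of the number of peaks in 500 kb windows, relative to the length of each list, called none of the 33 arm windows for the line (3 had an unadjusted p under 0.05; lowest adjusted p = 0.25) and none for the generation (3 with an unadjusted p under 0.05; lowest adjusted p = 0.786). Over all 231 windows of the genome it called 0.433% for the line and 0% for the generation. Line differences in the arm windows lay between -0.124 and 0.115 on the log2 scale (RIL149 minus RIL50), and generation differences between -0.122 and 0.154 (generation 10 minus generation 3).

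A small share of arm regions had a peak in every library of a line and in none of the other line. A region without a peak may still be open under the caller's threshold. A region was called line-specific when it had a peak in 4 of 4 libraries of a line and in 0 of 4 of the other. By this rule 28 arm regions (0.674%) were found only in RIL149, against 0.705% of all nuclear regions, and 35 (0.842%) only in RIL50, against 0.888% of all nuclear regions. Both shares were close to this background, which includes the stretches around the centromeres. The arms of the other chromosomes were not counted alone, so the shares do not say whether these arms stand apart from other arms. Between the arms 50 of 524 regions (9.54%) were line-specific, a description with no test. Of the 28 regions of RIL149, 18 lay at a gene end, 6 inside a gene and 4 outside both, and of the 35 of RIL50, 28, 0 and 7. The rule loosens when a library is left out: without RIL149 generation 3 lineage 2 there were 64 regions only in RIL149, and regions only in RIL50 numbered 56 without RIL149 generation 10 lineage 2 and 53 without RIL50 generation 10 lineage 2.

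The placing of the line-specific regions along the arms was uneven. The outer part of the low-coordinate arm, chr3:114-2847400, held 741 regions in a row and no line-specific region. The window chr3:9000001-10000000 held 6 regions only in RIL149 and 5 only in RIL50 (4.66% of its 236 regions), and chr3:22000001-23000000 held 5 and 4 (3.24% of 278). After the last of these, chr3:22768570-23459708 held 211 regions and again none.

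**Figure D3:**
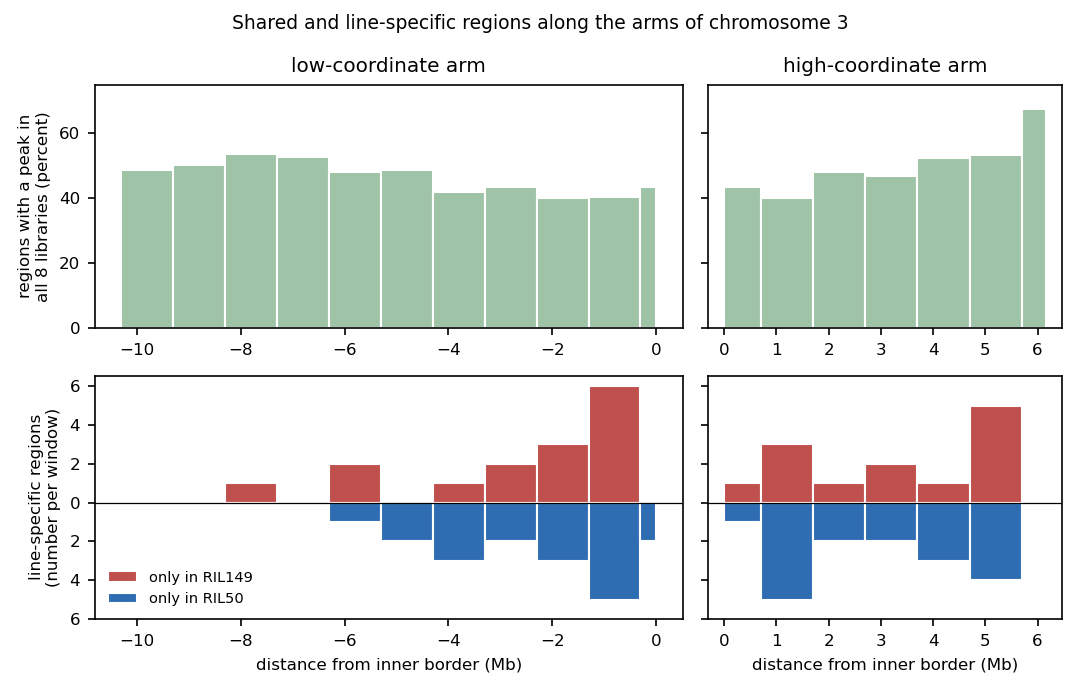
Percentage of regions with a peak in all 8 libraries (top) and number of line-specific regions (bottom, RIL149 above and RIL50 below the zero line) per window of 1 Mb, shorter at the inner borders and the high end, by distance from the inner border of each arm (Mb). The shared percentage is lower beside the inner borders than at the outer ends, and line-specific regions are absent from the outermost windows.

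Among the regions found only in RIL149 on the low-coordinate arm, those with the highest lowest fold and a named gene were at ARO4, RLP42, JMJD5, CYP71B19 and PAD3. The region at ARO4, a gene of the armadillo-repeat family (chr3:9768618-9769308), had folds of 11 and 7.75 at generation 3 and 11.6 and 12.9 at generation 10. The nearest RIL50 peak lay 273 bp away. The region at RLP42 (chr3:9119402-9120016), whose receptor-like protein senses a fungal cell wall-degrading enzyme, had folds of 6.88 and 6.28 at generation 3 and 8.46 and 9.65 at generation 10. The region at JMJD5, a jumonji-type histone demethylase gene tied to the circadian clock (chr3:7278838-7279046), had folds of 5.40, 4.82, 5.31 and 5.15, and counting every peak at its ends this gene was open in 7 of 8 libraries.

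The region at CYP71B19, a cytochrome P450 gene (chr3:9575914-9576170), had folds of 3.91, 3.91, 4.84 and 5.87. PAD3 encodes the cytochrome P450 of the last step in the synthesis of camalexin, an antimicrobial compound of Arabidopsis. Its region (chr3:9887452-9887860) had folds of 3.44 and 3.62 at generation 3 and 3.09 and 3.56 at generation 10, and the nearest RIL50 peak was 1258 bp away. With lists cut to the length of the shortest, the PAD3 region no longer met the rule.

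On the high-coordinate arm the RIL149 regions named were at DMS3, NOA1 and MEE40, and at AT3G61028 and AT3G54730, which have no symbol in the annotation used. The region inside AT3G61028 (chr3:22583227-22583983) had folds of 10.3, 6.35, 11.3 and 12.4, and the nearest RIL50 peak was 12758 bp away. The region at AT3G49230 (chr3:18255696-18256008) overlaps DMS3, which encodes a protein of RNA-directed DNA methylation, and the embryo gene emb1796, and had folds of 6.10, 5.09, 5.91 and 8.57. Counting every peak at its ends, DMS3 did not meet the rule. The region at NOA1, a chloroplast GTPase gene, and ATSMC2, a condensin subunit gene (chr3:17486233-17486493), had folds of 5.00, 3.91, 6.99 and 6.85.

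The region at AT3G54730 (chr3:20260461-20260751) ranged from 5.02 to 8.79, with a RIL50 peak 205 bp away. The region at MEE40, named for arrest of embryos, and AGD6, an ARF GTPase-activating protein gene (chr3:19902609-19903285), ranged from 2.88 to 7.03. Of these 10 regions 7 met the rule under all 5 alternatives of peak filter, list length, minimum fold, merging and distance; ARO4 and AT3G54730 lost it when any RIL50 peak within 500 bp counted.

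Among the regions found only in RIL50, the one with the highest lowest fold of either line on these arms was at AT3G25910 (chr3:9488588-9488980), with folds of 19.8 and 14.0 at generation 3 and 11.8 and 14.8 at generation 10. This gene has no symbol either, and the naming order puts genes with symbols first, so it is named here after its values were seen. On the low-coordinate arm that order gave regions at PRP40B, SGF29a, OLEO4, RLP41 and RBP47B. The region at AT3G19660 and PRP40B, a pre-mRNA processing gene (chr3:6827543-6828077), had folds of 9.58, 6.66, 7.02 and 6.37. The region at SGF29a, a gene of the SAGA chromatin coactivator complex (chr3:10162778-10163095), had folds of 4.94, 5.22, 3.35 and 3.64, and the nearest RIL149 peak was 7364 bp away.

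The region of OLEO4, an oil-body protein gene, and RST1, a gene needed for normal cuticular wax (chr3:10244557-10245257), ranged from 2.78 to 3.91. The region near an end of RLP41, another receptor-like protein gene (chr3:9108963-9109245), ranged from 2.56 to 3.96. It overlaps the genes RLP40 and AT3G24929 and not RLP41 itself. The genes RLP41 and RLP42 are neighbours, but the nearest RIL149 peak, 5140 bp away, was not the RIL149 region at RLP42. The region at RBP47B, an RNA-binding protein gene, and DNF, a photoperiod gene (chr3:6614624-6614955), ranged from 2.43 to 4.04, with a RIL149 peak 349 bp away. These last 3 regions lost the rule with lists of equal length, as the RIL149 region at PAD3 did, and the RBP47B region also lost it at a −log10 q of at least 5 and when any RIL149 peak within 500 bp counted.

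On the high-coordinate arm the RIL50 regions were at ACS1, AT3G48770, AT3G50210, HEXO1 and ZR3. ACS1 is a gene of the ACC synthase family, whose active enzymes make the precursor of ethylene. Its region (chr3:22766802-22767324) had folds of 13.3 and 11 at generation 3 and 10.4 and 12.1 at generation 10, where no RIL149 library had a peak. The region at AT3G48770 and SPT1, a serine palmitoyltransferase gene of sphingolipid synthesis (chr3:18088309-18088659), had folds of 6.08, 5.10, 6.33 and 6.37, with a RIL149 peak 358 bp away.

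The region at AT3G50210 and IRX15, a gene of xylan synthesis (chr3:18616370-18616681), ranged from 4.74 to 8.73. The region at HEXO1, a beta-hexosaminidase gene (chr3:20488958-20489291), ranged from 3.81 to 4.74, and the region at ZR3, a zinc ribbon gene (chr3:20310102-20310430), from 3.66 to 6.80. Of the 10 named RIL50 regions 6 met the rule under all 5 alternatives. The named regions were picked for high folds, and over all line-specific regions of the arms fewer kept the rule. It was met under all 5 alternatives by 12 of the 35 RIL50 regions and 16 of the 28 RIL149 regions. With lists of equal length, 14 of the 35 and 18 of the 28 still met it.

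**Figure D4:**
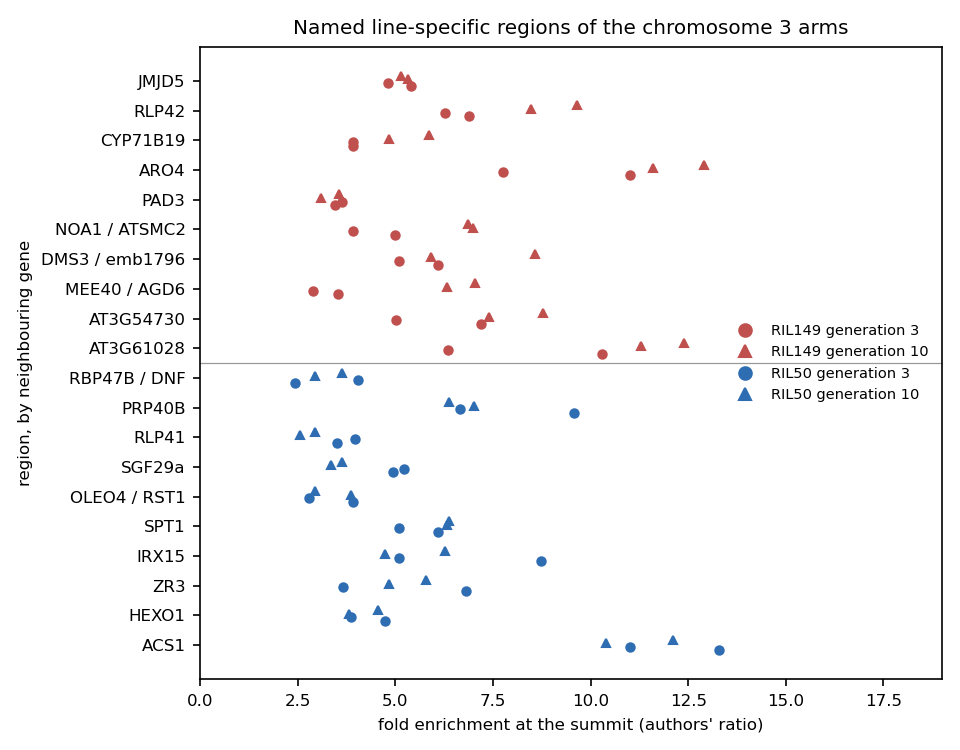
Fold enrichment at the summit (horizontal axis, the authors' ratio) of the 20 named line-specific regions in the 4 libraries that held them, RIL149 above the grey line and RIL50 below it, circles for generation 3 and triangles for generation 10. ARO4 and AT3G61028 reach 12.9 and 12.4 in RIL149, and ACS1 lies between 10.4 and 13.3 in RIL50.

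Line-specific regions next to each other were rare. In RIL50, chr3:7386546-7387531 held 2 such regions beside AT3G21080, and chr3:18611208-18616681 held 2 at AT3G50190 to AT3G50210. In RIL149, chr3:22521995-22522801 held 2 inside AT3G60940, and chr3:22575301-22583983 held 2 from AT3G61010 to AT3G61028. The nearest RIL50 peak was 16103 bp from the first region in AT3G60940, the greatest distance among the 28 regions.

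Counted by gene, 3670 of 4705 protein-coding genes on the arms (78.0%) were open at an end in 1 or more libraries and 2329 in all 8. Genes with such peaks in RIL149 alone numbered 13 (0.276%), against 0.262% of all nuclear protein-coding genes, and genes with them in RIL50 alone 25 (0.531%), against 0.434%. The RIL149 genes with a symbol were RLP42, PAD3, NOA1, ATSMC2, emb1796, MEE40 and CCR3, a gene of the CRINKLY4-related kinase family. CCR3 met the rule by gene only, as no line-specific region of the arms was found at it. The RIL50 genes with a symbol were ETR2, an ethylene receptor gene, RLP41, SGF29a, RST1, ZR3 and ACS1. The RIL50 region at ETR2 (chr3:8253630-8254087) had low folds, from 1.86 to 3.09, and met the region rule under 2 of the 5 alternatives. Counting every peak at their ends, ARO4, JMJD5, CYP71B19, DMS3, PRP40B, OLEO4, SPT1, IRX15 and HEXO1 did not meet the rule. Both shares of genes were near the background, which includes genes around the centromeres.

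Lists of genes by function showed how open their ends were on these arms. All 8 libraries had a peak at 9 of 10 auxin genes, with AFB2 (lowest fold 8.93), IAA19 (8.14) and IAA16 (8.12) highest and IAA30 without a peak in any. The same held for 10 of 11 clock and light genes, with PIL2 (lowest fold 11.4), COL2 and TIC highest, for 6 of 7 housekeeping genes, with ACT11 (lowest fold 12.4), GAPC1 and EIF4A1 highest, and for 7 of 8 hormone and stress genes, with RGL2, NCED3 and ERF4 highest. Immunity genes had peaks in all 8 libraries in 7 of 13 cases, with PR4, WRKY45 and HCHIB highest, and of the 93 listed genes on the arms PAD3 was the one with a peak in 4 of 4 libraries of a line and 0 of 4 of the other. Only 2 of 13 genes of DNA methylation and chromatin did, MBD11 (lowest fold 13.2) and IDN2 (7.09), while DCL2, FIE, RDM1, NRPD2A, UBP26 and HTA11 had no peak in any library. Among developmental genes 3 of 12 did (CUC1, SHP1 and MUTE), and BRC1, FUS3, AP3, CR4 and DAG1 had none. Over all protein-coding genes of the arms, 49.5% had a peak in all 8 libraries. PR4 and IAA16 had the same folds because both were scored on the peak between them, so they are not separate open sites.

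Regions found in a single generation were fewer, with lower folds. Both lines had a peak at generation 10 and none at generation 3 in 16 arm regions (0.385%, against 0.328% of all nuclear regions), and the reverse held for 0 arm regions, against 0.0166%. Their lowest folds were 1.80 to 2.74 with a median of 2.15, where the line-specific regions had medians of 3.10 in RIL149 and 2.74 in RIL50. The region at WRKY70, a regulator between salicylic acid and jasmonate defence (chr3:20911482-20911689), had folds of 4.43 and 3.99 in RIL149 and 2.63 and 4.24 in RIL50 at generation 10, while counting every peak at its ends the gene was open in all 8 libraries. The region at TLP9, a tubby-like protein gene (chr3:1935773-1936274), had 3.66 and 2.84 in RIL149 and 2.90 and 2.63 in RIL50.

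The other named regions of this kind were at AT3G49142 (2.74 to 4.76), AT3G15430 (2.44 to 4.26) and CYP71A23 (2.37 to 3.76). Generation 3 lists held 13186 to 19193 nuclear peaks and generation 10 lists 16952 to 21540. With lists of equal length 3 regions were found only at generation 10, none of them among these 16, and 8 only at generation 3. Leaving out a library loosens the rule, and the count only at generation 10 was then 29 without RIL149 generation 10 lineage 1, 28 without RIL50 generation 3 lineage 2, and 30 and 32 without RIL50 generation 10 lineage 1 and lineage 2. Without RIL149 generation 3 lineage 2 the counts were 16 only at generation 10 and 4 only at generation 3.

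In some regions open in every library, the summit, the position of the highest pileup, lay at a different place in each line. A limma fit over 9186 nuclear regions with exactly 1 peak in every library included 1678 arm regions, whose summit ranged over a median of 64.0 bp between libraries. At an adjusted p under 0.05 and a shift of at least 20 bp, 16 arm regions (0.954%) were called for the line, 10 on the low-coordinate and 6 on the high-coordinate arm, against 0.697% of all regions tested. The summit lay at the higher coordinate in RIL149 in 11 of the 16, against 37 of the 64 called over all regions tested. The positions of the lines overlapped in none of the 16. The call itself favours regions without overlap, so this describes the called regions and adds no evidence. Without the shortest list 18 were called.

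The greatest shift was in a region without a gene end nearby (chr3:18871770-18872688). Its summit lay 305, 303, 305 and 303 bp from the region start in RIL149 and 619, 626, 649 and 619 bp in RIL50. The shift was -324.2 bp (RIL149 minus RIL50, SE 7.59; limma adjusted p = 2.6e-05), and the lines' summits lay on opposite sides of the region's middle. In the region at AT3G61520 (chr3:22768570-22769097), the next gene after ACS1 on the chromosome, the summit lay 324, 329, 327 and 317 bp from the start in RIL149 and 150, 149, 149 and 145 bp in RIL50, a shift of 176.0 bp (SE 4.36; limma adjusted p = 2.8e-05).

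Several shifts were small but sharp. Between PR4, which encodes a pathogenesis-related chitin-binding protein, and IAA16, an auxin-response repressor gene (chr3:1286937-1287851), the summit lay 694, 693, 692 and 693 bp from the start in RIL149 and 620, 620, 620 and 621 bp in RIL50. The shift was 72.75 bp (SE 3.64; limma adjusted p = 7.1e-04) and the 4 libraries of a line spanned at most 2 bp. At AT3G09720, the gene of RNA helicase RH57 (chr3:2983574-2983920), the summit lay at 155 bp in all RIL149 libraries and at 213 to 219 bp in RIL50, a shift of -62.25 bp (limma adjusted p = 0.00139). At AT3G26445 (chr3:9680561-9680950) it lay at 106 to 108 bp in RIL149 and 165 to 167 bp in RIL50 (-59.50 bp; limma adjusted p = 0.00139).

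At PMR6, a pectate lyase-like gene needed for powdery mildew infection (chr3:20344723-20345138), the summit lay at 164 to 180 bp in RIL149 and at 233 bp in every RIL50 library (limma adjusted p = 0.00757). At HEB2, a gene named for hypersensitivity to excess boron (chr3:5699112-5699427), it lay at 148.5 ± 1.73 bp in RIL149 and 99.5 ± 4.36 bp in RIL50 (SD over 4 libraries), without overlap (limma adjusted p = 0.00757). The remaining named shifts were at DIN11, a dark-inducible gene (142.8 bp, SE 12.7), CYP71B26, a cytochrome P450 gene (105.2 bp, SE 9.71), and at ASHH4, a histone methyltransferase gene, and MTHFR1, a folate metabolism gene (51.00 bp, SE 4.67), with limma adjusted p of 0.00791, 0.00878 and 0.00878.

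Of the 6 other called regions, the one at LHCA1, the photosystem I antenna gene, was singled out after its values were seen. Its summit lay at 194 and 195 bp in RIL149 at generation 3, at 222 and 225 bp at generation 10, and at 148 to 150 bp in RIL50 (59.75 bp; limma adjusted p = 0.0228), and the call was kept in 4 of 12 alternative fits. The regions at AT3G15480, AT3G27360 and AT3G26110 kept it in 6, 4 and 3 of 12. The 10 named regions kept it in every alternative in which they were tested, as did EMB2743 and CPK9 (chr3:7115616-7116196) and chr3:7909836-7910499. For the generation, 2 arm regions were called, against 0.0544% of all regions tested, at chr3:3049011-3049746 (136 bp, SE 11.3; limma adjusted p = 0.0411) and at AT3G53890 and UPP (-45.5 bp, SE 3.99; limma adjusted p = 0.0445). With the lineage as a replicate block 0 were called, and 0 without RIL149 generation 3 lineage 1, RIL149 generation 10 lineage 2, RIL50 generation 3 lineage 1 or RIL50 generation 10 lineage 1. Reads were mapped to a reference that is neither Ler nor Cvi, and the part of sequence differences in any line difference given here was not tested.

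**Figure D5:**
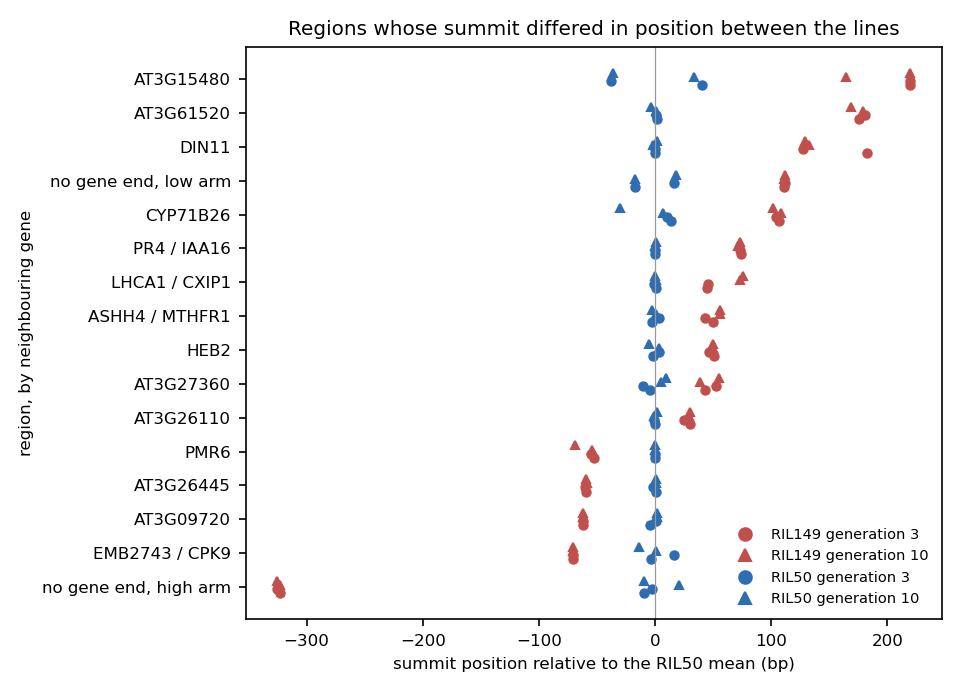
Position of the peak summit in each library relative to the RIL50 mean (bp, horizontal axis) in the 16 arm regions called for the line, by neighbouring gene, with RIL149 in red, RIL50 in blue, circles for generation 3 and triangles for generation 10. The lines are separate in each region, which the call itself favours, by -324.2 bp at the bottom and by 206.0 bp at AT3G15480 at the top.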

How the data were processed

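Nuclei from about 200 mg of shoots of seedlings grown for 7 to 9 days at 25 °C were tagmented and sequenced with paired reads of 150 bp by the authors, per the labels' protocols. Tools named in the submitters' processing notes are MACS2 2.2.9.1, BWA 0.7.17, Trimmomatic 0.39 and Picard, with the TAIR10 build. Whether reads were shifted for the transposase offset, and which mapping filters applied, is not given in the sources used here. Each library has its own deposited peak list, 8 in all. Per the file headers and format, the authors' fold is a ratio over local background, and p and q values are deposited as −log10 (every q passes 0.05). The integer score deposited beside them is derived from q. The authors' lists hold no counts, so depth is unknown and list length limits what can be found.

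Groups came from the labels; the lists' own names carry generation numbers that differ by 1, and the labels were followed. Peaks were merged at an overlap of 1 bp, with Python 3.11.15 and pandas 2.3.3. Library values were compared by exact permutation, and fold contrasts by exact sign flips. Windows (500 kb, mean of at least 5 peaks, pseudocount 0.5 on the log2 scale) and summit positions were fitted across the genome with limma 3.58.1 in R 4.3.3, with line and generation as terms and Benjamini-Hochberg adjustment. On simulated data with line differences the summit fit recovered 114 of 200 shifts of 100 bp among 9186 regions (12 false calls). The window fit recovered 29 of 30 changes of 1.00 on the log2 scale among 231 windows (1 false call). Line differences in the arm windows were smaller, from -0.124 to 0.115, and recovery of changes of that size was not simulated. Lineage numbers pair generations within a line by labelled descent: deviations from the group means correlated at 0.0224 in RIL149 and 6.1e-04 in RIL50. In RIL149 lineage 2 both generations are of sublineage 1, and in the other 3 lineages generation 10 is of sublineage 2. Across lines the numbers pair nothing.

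Gene ends were taken from the RefSeq table of TAIR10.1, without strand, for names and neighbours only, and 105 of 106 listed genes were matched. The members, gene lists and tests were chosen with earlier results of these data known. Named regions were the 5 per arm and line with the highest lowest fold (genes with a symbol first), runs of neighbouring line-specific regions within 20 kb, the 5 strongest shared regions per arm, the 5 strongest of a generation, the 5 summit shifts per arm with the lowest adjusted p, and, in the gene lists, genes with peaks in a single line or in no library and up to 3 of the strongest. Alternatives were left-out libraries, a −log10 q of at least 5, equal lists, other merging, a fold of at least 2, other windows and pseudocounts, and the replicate block.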

Additional observations from a re-analysis of the deposited data

Results flagged for a closer look

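Of 65 groups of 4 libraries checked for a value far from the other 3, 4 were picked out, where chance picks about 5% of groups. RIL50 generation 10 lineage 2 had 2858 arm regions with a peak, far below the 3188 to 3220 of the other RIL50 libraries. At AT3G09680 the fold in RIL149 generation 10 lineage 2 was 20.5, against 16.9 to 17.5 in the other RIL149 libraries. At AT3G57760 the fold in RIL149 generation 3 lineage 2 was 19.6, against 26.9 to 27.8 in the other RIL149 libraries. At FER the fold in RIL50 generation 3 lineage 1 was 21.2, against 17.9 to 18.3 in the other RIL50 libraries.

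The share of nuclear peaks that lay on the arms was lower at generation 10 in both RIL149 lineages, while in both RIL50 lineages it was higher by less than the spread between libraries. In RIL149 it went from 17.99% to 17.59% in lineage 1 and from 18.03% to 17.45% in lineage 2. In RIL50 it went from 17.48% to 17.49% and from 17.81% to 17.87%. The generation difference of RIL149 minus that of RIL50 was -0.525 percentage points, and this difference was not tested.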

How the results depend on the processing

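Among the alternatives that keep all libraries, 4 of the counts over the arms moved: equal lists gave 3 regions only at generation 10 and 8 only at generation 3, the replicate block gave 0 generation calls in the summit fit, and allowing 1 or more peaks per library gave 5. In another 16 cases a single named region no longer met its rule. The cause was not tested. In the replicate block, lineage pairs the generations for the generation term only. For the line term the block was the lineage number, which pairs nothing across lines. With the block, the generation difference in region number was 355.2 (exact permutation p = 0.375) and the line difference -117.2 (exact permutation p = 0.833). No window was called, and the summit fit called 12 regions for the line. The 10 shifts chosen by the naming rule kept their call, and those at LHCA1, AT3G15480, AT3G27360 and AT3G26110 lost it.

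Leaving out each library in turn gave a line difference in arm regions of -309.8 to 149.0 (reversed to 149.0 without RIL149 generation 3 lineage 2) and a generation difference of 128.7 to 482.6. It gave 28 to 64 regions only in RIL149, 35 to 56 only in RIL50, 16 to 32 only at generation 10 and 0 to 4 only at generation 3, partly because a rule over 7 libraries is looser. Summit calls were 13 to 22 for the line and 0 to 3 for the generation, the fold contrasts 0.0437 to 0.0477 and -0.0476 to -0.0371, and window calls 0 throughout. Read depth is unknown, and a region without a peak may lie under the caller's threshold.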

Other observations

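Arm regions missing from a single library fell mostly in the shortest list. A peak in 4 of 4 RIL50 and 3 of 4 RIL149 libraries was found in 373 arm regions, and the missing library was RIL149 generation 3 lineage 2 in 348 of them. The reverse, 4 of 4 RIL149 and 3 of 4 RIL50 libraries, held for 74 regions, of which 50 lacked a peak in RIL50 generation 10 lineage 2. RIL149 generation 10 lineage 2, the longest list, had 147 arm regions found in no other library.

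Of the 16 regions whose summit differed between the lines, 8 (50.0%) lay within 50 kb of a line-specific region, against 25.0% of the 1678 arm regions tested, and their median distance was 49.5 kb against 134 kb. At ACS1 a region found only in RIL50 lay 1253 bp from the nearest RIL149 peak, in the stretch where the AT3G61520 summit shifted by 176.0 bp. These values are descriptions with no test.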
